A study of Rattus norvegicus with 2 samples.

Results

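Nonmuscle myosin II and the enzymes that regulate it were followed in primary rat oligodendrocyte precursor cells (OPCs), the dividing glia that later form myelin. The genes were chosen by name: every row of the deposited expression table whose symbol is Myh9, Myh9l1, Myh10, Myh14, Myl6, Myl9, Myl12a, Myl12b, Mylk or Ppp1r12a, which gave 10 of the 17202 genes listed. Bulk RNA sequencing covered 2 cultures of wild-type cells from rat brain, with 1 library each. One culture was given amyloid-beta (Aβ), the peptide that accumulates in Alzheimer plaques, at 1 µM for 2 days, and the other was given DMSO, the solvent. Both were grown in the same OPC growth medium. The protocol text on treatment is shared by both samples and names Aβ alone, so the time in DMSO rests on it. The labels speak of developing animals in one place and of adult OPCs in another, the titles of both samples begin with P1 without saying what it stands for, and the age of the donors was not worked out here.

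The Aβ library held 15117102 estimated counts and the DMSO library 15019416, and 13510 genes were measured, at 1 CPM (counts scaled to library size) or more in at least 1 of them. Levels of the 10 myosin genes are given as estimated counts and as TPM (transcripts scaled to a fixed total), which are scaled for transcript length and can be compared between genes. Ratios are Aβ over DMSO on counts scaled to effective library size, and their 95% intervals cover counting error alone. With 1 library per group, no test was possible, no difference has a replicate check, and each value compares these libraries rather than the conditions. The labelled cell type was checked against its markers. All 8 OPC markers were measured, with a summed level of 2224 TPM with Aβ and 2150 TPM with DMSO. Olig1 and Ptprz1 gave 850 and 673 TPM of that sum with Aβ, and the other genes 14.4 (Cspg4) to 228 TPM (Pdgfra). Smooth muscle and pericytes are rich in contractile myosin. Their markers (8 genes) summed to 12.1 TPM with Aβ and 10.6 TPM with DMSO. Only 4 of these markers were measured: Tagln (5.15 TPM in the Aβ library), Myh11 (3.29 TPM), Pdgfrb (1.81 TPM) and Des (1.58 TPM). Acta2, also on this list, fell short of the measured level, at 1 count in each library. Astrocyte markers (5 genes) summed to 1046 TPM with Aβ and 1001 TPM with DMSO, and neuronal markers (5 genes) to 582 TPM with Aβ and 552 TPM with DMSO. These sums rest on few genes. Gfap gave 838.5 TPM of the astrocyte sum with Aβ, and the other genes 11.1 (Slc1a2) to 82.8 TPM (Gja1). Tubb3 and Map2 gave 372 and 151 TPM of the neuronal sum with Aβ, and the other genes 6.39 (Rbfox3) to 30.0 TPM (Syt1). Markers of fibroblasts (4 of 5 genes with a row), endothelium (4 of 6) and microglia (7 of 7) summed to 3.64, 0.86 and 11.1 TPM with Aβ and to 2.71, 0.75 and 14.5 TPM with DMSO. Markers of mature oligodendrocytes (6 genes) summed to 60.4 TPM with Aβ and 58.0 TPM with DMSO. The share of the myosin transcripts that came from such cells was not tested. In bulk RNA, fewer cells of a type and less RNA per cell cannot be told apart.

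Nonmuscle myosin II is the motor that pulls on actin filaments outside muscle. Each molecule joins a pair of heavy chains, which carry the motor and the tail that builds filaments, with essential and regulatory light chains. Phosphorylation of the regulatory light chain by kinases such as MLCK and ROCK switches the motor on, and the myosin phosphatase switches it off. In the oligodendrocyte lineage, actomyosin contraction is known to oppose process branching and myelination, and myosin II is normally reduced as the cells mature.

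Levels of the myosin II genes were close in both libraries, with 1 exception that concerns a pair of entries for one heavy chain. Myh9, the heavy chain of myosin IIA, was listed higher with Aβ and Myh9l1 was listed lower. Their sum was nearly equal in both libraries. Myh10, the heavy chain of myosin IIB, was 1.07 times as high with Aβ, and both abundant regulatory light chains, Myl12a and Myl12b, were 0.913 and 0.940 times as high. The essential light chain Myl6 had a ratio of 1.00.

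**Figure D1:**
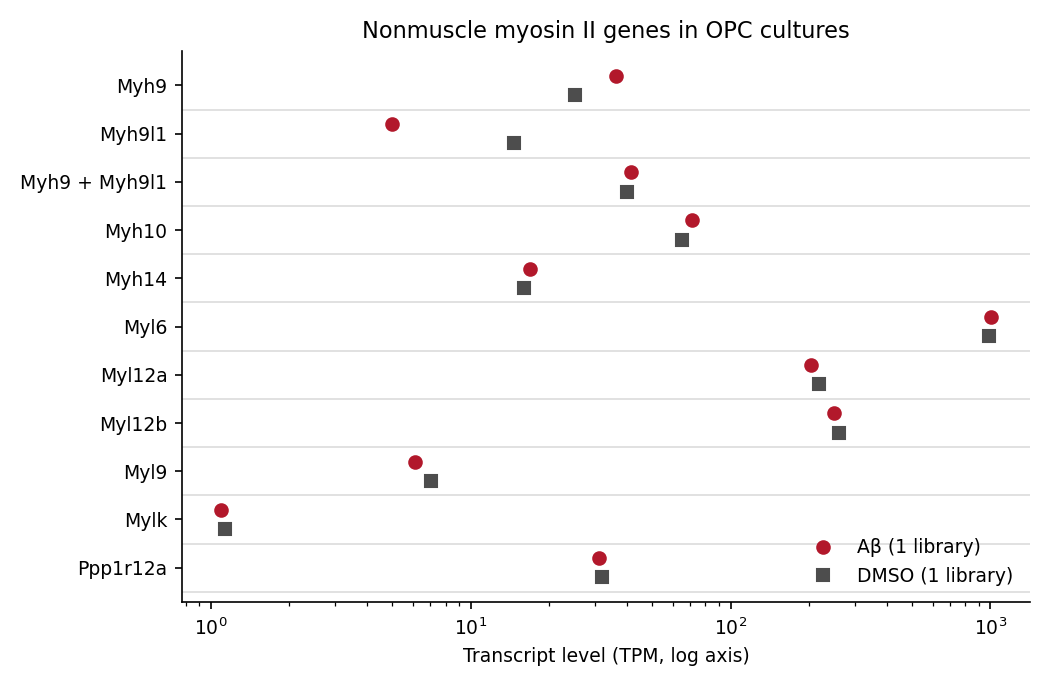
Transcript level of each myosin II gene, in TPM on a log axis, with red circles for the Aβ library and grey squares for the DMSO library. Myl6 lies highest, at 1007 TPM with Aβ and 989 TPM with DMSO, and only Myh9 and Myh9l1 show markers far apart, while their sum does not.

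Of the heavy chains, the Myh9 entry, gene identifier 100911597, had an estimated count of 2731.82 and a level of 36.3 TPM with Aβ, against 1931.99 and 25.1 TPM with DMSO. The Myh9l1 entry, identifier 25745, had 364.18 and 4.98 TPM with Aβ, against 1095.01 and 14.7 TPM with DMSO. The Myh9 entry was thus high with Aβ and the Myh9l1 entry high with DMSO, with ratios of 1.40 (interval 1.32 to 1.49) and 0.330 (0.292 to 0.372). Identifier 25745 carries the symbol Myh9 in the RefSeq gene table (assembly GRCr8), which gives Myh9l1 as its synonym, and 100911597 had no match there. The symbol Myh9 thus stands on one identifier in the expression table and on the other in RefSeq.

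The counts of these entries were fractional, whereas the other 8 myosin II genes had whole counts in both libraries. The fractions were complementary: the counts of both entries added up to 3096.00 with Aβ and 3027.00 with DMSO, whole numbers to the 2 decimals listed. The lengths implied by count and FPKM were also close, at 7098 bases for Myh9 and 6884 bases for Myh9l1. Of the summed count, 88.2% (exact binomial interval 87.1 to 89.4) was listed under Myh9 with Aβ and 63.8% (62.1 to 65.5) with DMSO. Shared reads are divided between such entries by the quantifier, following a rule not given in the sources used here.

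**Figure D2:**
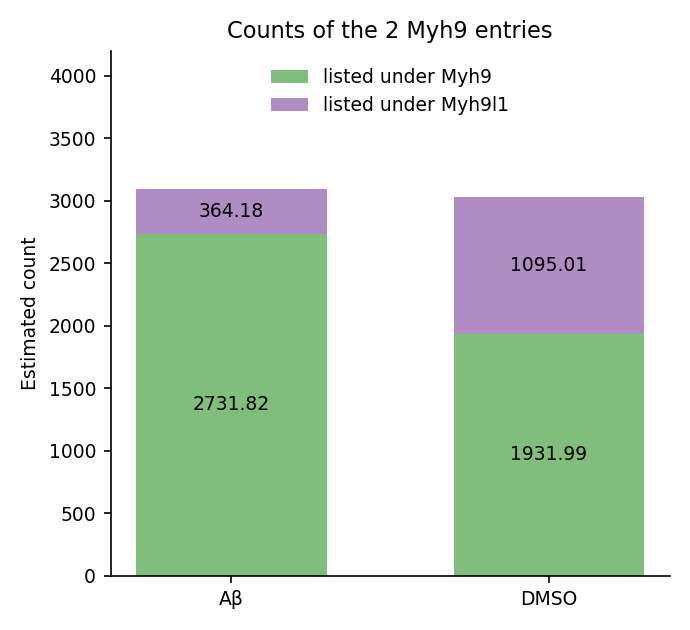
Estimated counts of Myh9 and Myh9l1 stacked for the Aβ library (left) and the DMSO library (right). The stacks reach 3096 with Aβ and 3027 with DMSO, while the part listed under Myh9l1 is 364.18 with Aβ and 1095.01 with DMSO.

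Summed, the myosin IIA heavy chain stood at 41.2 TPM with Aβ and 39.8 TPM with DMSO, for a ratio of 1.01 (0.965 to 1.07). Myh9l1 was the 1 member of 10 that passed a rule of size (at least 2-fold, with an interval that leaves out 1). Of the measured genes, 0.696% passed that rule, and among those with fractional counts 4.6% did, against 0.102% of genes with whole counts. The passing member thus belongs to the class of genes in which such differences were most often listed. Another myosin pair had divided counts too. Myh6 and Myh7, the cardiac heavy chains, had 15.75 and 53.25 counts with Aβ and 11.77 and 62.23 with DMSO. They also summed to whole numbers, 69.00 with Aβ and 74.00 with DMSO. The share listed under Myh6 was 23.2% (13.9 to 34.9) with Aβ and 16.2% (8.67 to 26.6) with DMSO, with overlapping intervals.

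Myh10 was the most abundant heavy chain, with 5523 counts and 71.1 TPM with Aβ and 5135 counts and 64.8 TPM with DMSO. Its ratio of 1.07 (1.03 to 1.11) lay above 1 beyond counting error. Myh14, the heavy chain of myosin IIC, had 1124 counts and 17.0 TPM with Aβ and 1083 counts and 16.1 TPM with DMSO, for a ratio of 1.03 (0.946 to 1.12) that could not be told from 1 by counting error alone. Myosin IIB took 55.0% of the heavy chain TPM with Aβ and 53.7% with DMSO. Myosin IIA, with both entries, took 31.9% with Aβ and 33.0% with DMSO, and myosin IIC 13.1% with Aβ and 13.3% with DMSO. The order IIB, IIA, IIC was the same in both libraries. Within a library, where library scaling drops out, the odds of a Myh10 count against a myosin IIA count differed by a factor of 1.05 (0.987 to 1.12), an interval that includes 1.

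Values of the heavy chains stand beside a trend with length. Among measured genes with whole counts, the median log2 ratio was -0.021 for the 1651 genes under 1000 bases and 0.034 for the 1047 genes of 6000 bases or more. Heavy chain transcripts are long (7312 bases implied for Myh10) and light chain transcripts short (655 bases implied for Myl12a and 878 bases for Myl12b). Implied lengths, which also set the groups above, can fall well short of the transcript, as with 31.0 bases for Rpl38. With that trend subtracted, an alternative chosen after seeing the data, the log2 ratio of Myh10 was 0.059 in place of 0.093, and its ratio 1.04 (1.003 to 1.08). The source of the trend was not tested.

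The regulatory light chains are the switch of the motor. Myl12b had 2346 counts and 251.0 TPM with Aβ and 2476 counts and 261.2 TPM with DMSO. Myl12a had 1424 counts and 204 TPM with Aβ and 1547 counts and 219 TPM with DMSO. Both were lower with Aβ beyond counting error, with ratios of 0.940 (0.888 to 0.995) for Myl12b and 0.913 (0.849 to 0.982) for Myl12a. The share of each within the pair hardly differed, with an odds ratio for Myl12a against Myl12b of 0.972 (0.886 to 1.07). With the length trend subtracted, their log2 ratios were -0.072 for Myl12b and -0.11 for Myl12a, in place of -0.089 and -0.13. The interval of Myl12b then included 1 (0.899 to 1.01), and that of Myl12a remained below it (0.861 to 0.996).

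Myl9, the regulatory light chain best known from smooth muscle, was far less abundant, with 52 counts and 6.08 TPM with Aβ and 61 counts and 7.03 TPM with DMSO. Its ratio of 0.846 (0.573 to 1.24) was not distinguishable from 1 at this depth. Myl9 took 1.32% of the regulatory light chain TPM with Aβ and 1.44% with DMSO, so nearly all of these transcripts were Myl12a and Myl12b. Over all 3 genes the regulatory light chains had 3822 counts with Aβ and 4084 with DMSO, for a ratio of 0.928 (0.888 to 0.970).

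Myl12a and Myl12b are neighbours on chromosome 9 with 0 annotated genes between them, in the RefSeq table of assembly GRCr8. The 250 bases before the start of each are shown because these neighbours were the light chains whose intervals lay below 1, and a window of the same size for Myh10 because it had the highest ratio among the myosin II genes with whole counts. The sequences are from RefSeq on GRCr8, a later build than the Rnor_6.0 build of the count table, and are written 5′ to 3′ on the strand of the gene. The start that RefSeq's promoter table takes for Myh10 lies inside the annotated span of that gene, so its window does too. Capitals mark matches on either strand to GGGCGG (the core of the Sp1 site), CCAAT or TATAAA.
Myl12a, chr9:118346278-118346527, minus strand: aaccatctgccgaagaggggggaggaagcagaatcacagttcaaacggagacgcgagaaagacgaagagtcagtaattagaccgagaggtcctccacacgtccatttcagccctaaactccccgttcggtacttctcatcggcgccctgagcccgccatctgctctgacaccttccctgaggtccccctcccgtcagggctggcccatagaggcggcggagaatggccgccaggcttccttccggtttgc
Myl12b, chr9:118334811-118335060, minus strand: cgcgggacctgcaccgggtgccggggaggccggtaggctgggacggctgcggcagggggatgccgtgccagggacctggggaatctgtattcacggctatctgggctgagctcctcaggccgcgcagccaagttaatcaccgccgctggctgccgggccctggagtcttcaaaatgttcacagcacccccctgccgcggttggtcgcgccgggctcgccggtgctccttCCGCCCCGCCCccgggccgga
Myh10, chr10:53893014-53893263, plus strand: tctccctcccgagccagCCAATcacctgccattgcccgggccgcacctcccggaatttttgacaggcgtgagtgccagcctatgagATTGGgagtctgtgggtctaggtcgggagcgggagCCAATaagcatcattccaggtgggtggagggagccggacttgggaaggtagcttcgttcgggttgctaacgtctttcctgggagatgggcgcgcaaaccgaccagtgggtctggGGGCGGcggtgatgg

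These windows differ in the motifs they hold. Myl12b has 2 matches to GGGCGG, which overlap, Myh10 has 1 match to GGGCGG and 3 to CCAAT, and Myl12a has 0 matches to any of them. Of all 33469 promoter windows of this length, 30.5% hold GGGCGG, 34% hold CCAAT and 12.9% hold TATAAA. The CArG box, the site of the serum response factor, which is known to drive many contractile genes, was searched on both strands too. It is present in 1.5% of windows and in 0 of the 8 myosin II genes that have an entry. Myl9 and the Myh9 entry had no window. Windows of Mylk and Ppp1r12a, and a further window of Myh9l1, lay inside the annotated spans of those genes. Those of Myl6 and Myh14 overlapped theirs in part. At a rate of 1.5%, a lack of matches in 8 genes cannot say whether these genes carry the site. A match is a description of letters and not of binding.

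Myl6, the essential light chain that stabilizes the lever arm of the motor, was the most abundant of the 10 genes. It had 4116 counts and 1007 TPM with Aβ and 4079 counts and 989 TPM with DMSO, for a ratio of 1.00 (0.958 to 1.05). In each library 98.9% of measured genes had a lower TPM. Myl12a and Myl12b together differed from Myl6 within the libraries, with an odds ratio of 0.929 (0.872 to 0.989). In TPM, Myl6 was 2.18 times the summed regulatory light chains with Aβ and 2.03 times with DMSO.

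Set against the heavy chains, the light chains were several times as abundant per length. That comparison depends on the length scaling, and implied lengths (383 bases for Myl6) can fall short of the transcript. In counts, the regulatory light chains were 0.392 times the heavy chains with Aβ and 0.442 times with DMSO. Regulatory light chains reached 3.56 times the heavy chain TPM with Aβ and 4.04 times with DMSO, and Myl6 reached 7.78 times with Aβ and 8.19 times with DMSO. Counted within each library, the odds of a regulatory light chain count against a heavy chain count (all 4 entries) were 0.888 times as high with Aβ (0.842 to 0.936). On the log2 scale this difference was -0.17, and -0.12 with the length trend subtracted. The summed heavy chains had 9743 counts with Aβ and 9245 with DMSO, for a ratio of 1.05 (1.02 to 1.08). With the length trend subtracted it was 1.02 (0.993 to 1.05), an interval that includes 1.

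**Figure D3:**
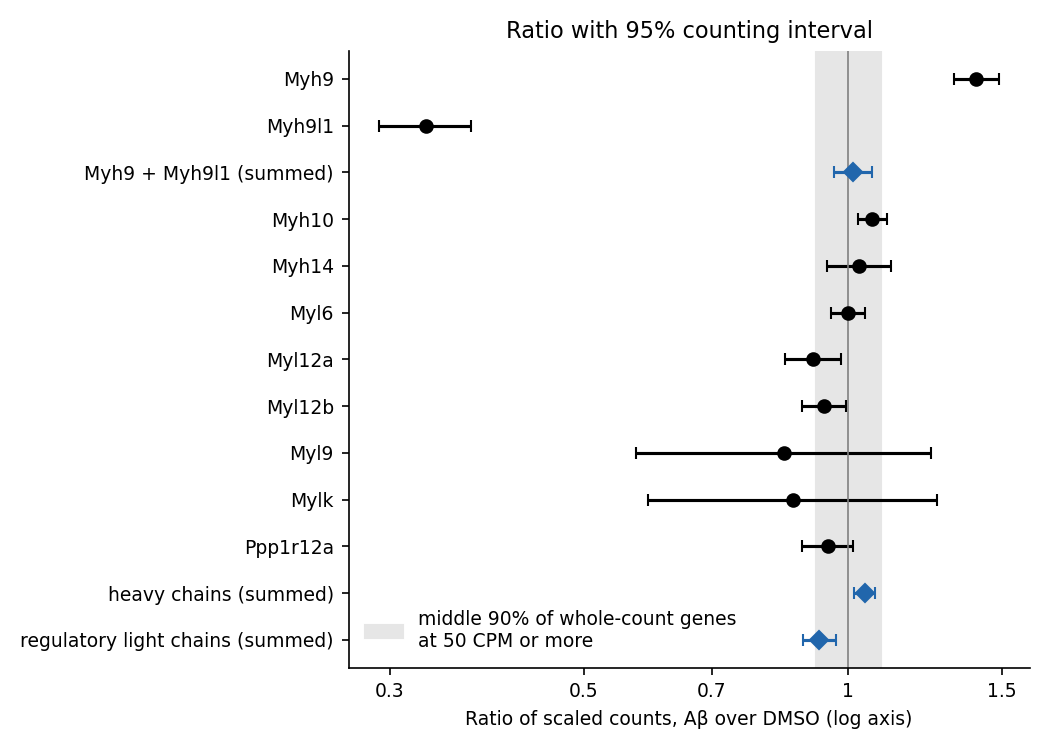
Ratio of scaled counts, Aβ over DMSO, on a log axis, with 95% counting intervals, for each myosin II gene (black circles) and for summed entries (blue diamonds). The grey band holds the middle 90% of genes with whole counts at 50 CPM or more, and only Myh9, Myh9l1, Myl12a, Myl9 and Mylk have points outside it, the last pair with wide intervals.

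Among the enzymes, Mylk, the myosin light chain kinase, was the least abundant of the 10 genes. It had 55 counts and 1.09 TPM with Aβ and 63 counts and 1.13 TPM with DMSO, for a ratio of 0.866 (0.592 to 1.26), so a difference of this size was not detectable at this depth. Ppp1r12a, the targeting subunit of the myosin phosphatase (MYPT1), had 1764 counts and 31.1 TPM with Aβ and 1845 counts and 32.0 TPM with DMSO. Its ratio of 0.948 (0.888 to 1.01) also had an interval that includes 1, and with the length trend subtracted it was 0.933 (0.874 to 0.997). Mylk had 0.0312 counts per Ppp1r12a count with Aβ and 0.0341 with DMSO, an odds ratio of 0.913 (0.620 to 1.34).

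The order of levels per length was headed by Myl6, Myl12b, Myl12a and Myh10 in both libraries, and Mylk came last in both. Lower places differed. Ppp1r12a lay below the Myh9 entry with Aβ and above it with DMSO, and Myh9l1 lay below Myl9 with Aβ and above it with DMSO. Both exchanges involve an entry with divided counts. With the IIA entries summed, the order was the same in both libraries.

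The counting interval left out 1 for 5 of the 10 genes, Myh9 and Myh10 above and Myh9l1, Myl12a and Myl12b below, beside 13.4% of measured genes. For 3 of the 8 with whole counts it did so, beside 11.8% of genes with whole counts. Narrow intervals come with high counts, and among genes with whole counts at 50 CPM or more, 17.8% had such an interval and 3 of 6 myosin II genes did. The middle 90% of log2 ratios in those 4585 genes ran from -0.12 to 0.12. Myh10 (0.093) and Myl12b (-0.089) lay inside that range, and Myl12a (-0.13) just outside. Of the 8 whole-count genes, 3 had a ratio above 1 and 5 below, and the median was -0.083 on the log2 scale, beside 5854 above, 5872 below and a median of -0.00016 for all measured genes with whole counts.

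**Figure D4:**
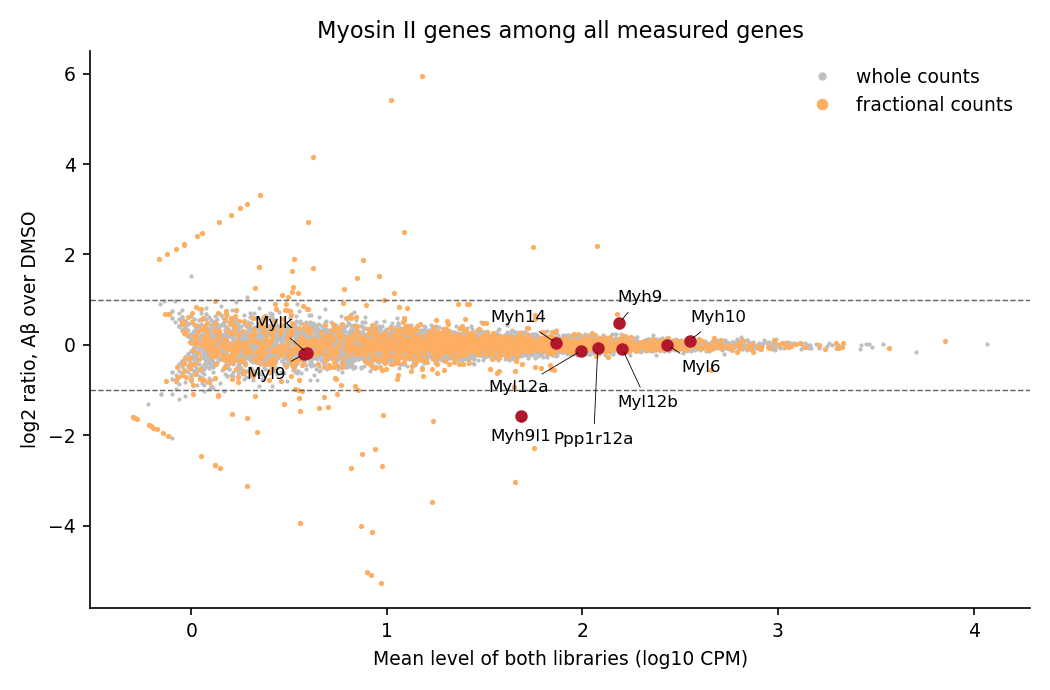
Log2 ratio, Aβ over DMSO, against the mean level of both libraries (log10 CPM) for all 13510 measured genes, grey where counts are whole and orange where they are fractional, with the myosin II genes in red. Dashed lines mark 2-fold, and Myh9l1 is the 1 myosin II gene beyond them, at -1.58.

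Genes that act on or beside myosin II were taken from 7 lists of 100 genes in all, of which 93 had a row and 80 were measured. Of the 80, 0 passed the rule of size, beside 0.696% of measured genes. The counting interval lay wholly above 1 for 12 of the 80, beside 6.48% of measured genes, and wholly below 1 for 7, beside 6.9%. Those shares are not matched for level, and narrow intervals come with high counts. Among genes with whole counts at 50 CPM or more, 17.8% had an interval leaving out 1 in either direction. Intervals of the 80 genes were not recomputed with the length trend subtracted. The median log2 ratio was 0.013, and the whole set ran from -0.30 to 0.48.

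Other kinases of the light chain were measured for 10 of 13 genes, with 5 above and 5 below 1 and a median of 0.012 on the log2 scale. Rock1, which also acts on the phosphatase, stood at 41.8 TPM with Aβ and 39.8 TPM with DMSO, far above Mylk. The MRCK kinases Cdc42bpg and Cdc42bpa, which act downstream of Cdc42, had 238 and 1050 counts with Aβ and 183 and 927 counts with DMSO. Their ratios were 1.29 (1.06 to 1.57) for Cdc42bpg and 1.12 (1.03 to 1.23) for Cdc42bpa, both beyond counting error. Stk17b had a ratio of 1.09 (0.984 to 1.21), and Dapk3, a kinase of the light chain and of MYPT1, had 0.953 (0.840 to 1.08).

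Genes of the myosin phosphatase were measured for 7 of 8, with 5 above and 2 below 1 and a median of 0.015. Ppp1cb, the catalytic subunit that Ppp1r12a binds, had 242 TPM with Aβ and 232 TPM with DMSO, for a ratio of 1.01 (0.977 to 1.05). Ppp1r14b, an inhibitor of the phosphatase, was the most abundant at 604 TPM with Aβ and 593 TPM with DMSO. Ppp1r12b, the MYPT2 subunit, had a ratio of 1.08 (0.990 to 1.18), Ppp1r14c, another inhibitor, 0.950 (0.859 to 1.05), and Nuak1, a kinase of MYPT1, 0.807 from 48 counts with Aβ and 59 with DMSO, with an interval that includes 1.

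Partners of the heavy chain and of filament assembly were all measured (13 genes), with 5 above and 8 below 1 and a median of -0.030. S100a4, a calcium-binding protein that disassembles myosin IIA filaments, had 602 counts and 320 TPM with Aβ and 727 counts and 393 TPM with DMSO, for a ratio of 0.821 (0.736 to 0.916). Svil (supervillin), which ties myosin II to the membrane, had 651 counts with Aβ and 725 with DMSO, for a ratio of 0.891 (0.800 to 0.991). Lurap1, an adaptor of the MRCK kinases, had a ratio of 1.47 (0.984 to 2.20) from 65 counts with Aβ and 44 with DMSO. The septins Sept2 and Sept7, which form filaments that bind myosin II, stood at 438 and 351 TPM with Aβ and 438 and 349 TPM with DMSO.

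Actin and its filament-binding proteins were all measured (18 genes), with 8 above and 10 below 1 and a median of -0.0046. Actb and the actin-severing protein Cfl1 (cofilin) were the most abundant, at 3055 and 2506 TPM with Aβ and 2988 and 2521 TPM with DMSO. The tropomyosin Tpm3, whose products decorate actin filaments, had a ratio of 0.926 (0.881 to 0.973), and Tpm2 0.886 (0.763 to 1.03).

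Of the 19 other conventional myosin genes, mostly from muscle, 4 were measured, and their median was 0.041, or 0.014 with the length trend subtracted. That median takes Myh6 (0.26) and Myh7 (-0.21) as separate genes, although their counts are divided. Summed, they had a log2 ratio of -0.10. At 10 CPM or more, Myh11 alone was left, at -0.037. Myh11, the smooth muscle heavy chain and nearest relative of the nonmuscle forms, had 217 counts and 3.29 TPM with Aβ and 221 counts and 3.27 TPM with DMSO, for a ratio of 0.974 (0.804 to 1.18). Myh7b had 74 counts with Aβ and 67.03 with DMSO. Unconventional myosins, which move cargo or shape membranes without forming filaments, were measured for 14 of 15, with 10 above and 4 below 1 and a median of 0.049. Myo10, the filopodial motor, was their most abundant member at 104 TPM with Aβ and 96.9 TPM with DMSO, for a ratio of 1.04 (1.01 to 1.07), and Myo6 followed with 36.4 TPM with Aβ and 35.5 TPM with DMSO. Myo9a had a ratio of 1.23 (1.08 to 1.41) and Myo1f 1.45 (0.679 to 3.19) from 19 counts with Aβ and 13 with DMSO. With the length trend subtracted, the median of the unconventional myosins was 0.018. For Myo10 the trend was 0.035 on the log2 scale, beside its log2 ratio of 0.057, and its interval was not recomputed.

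**Figure D5:**
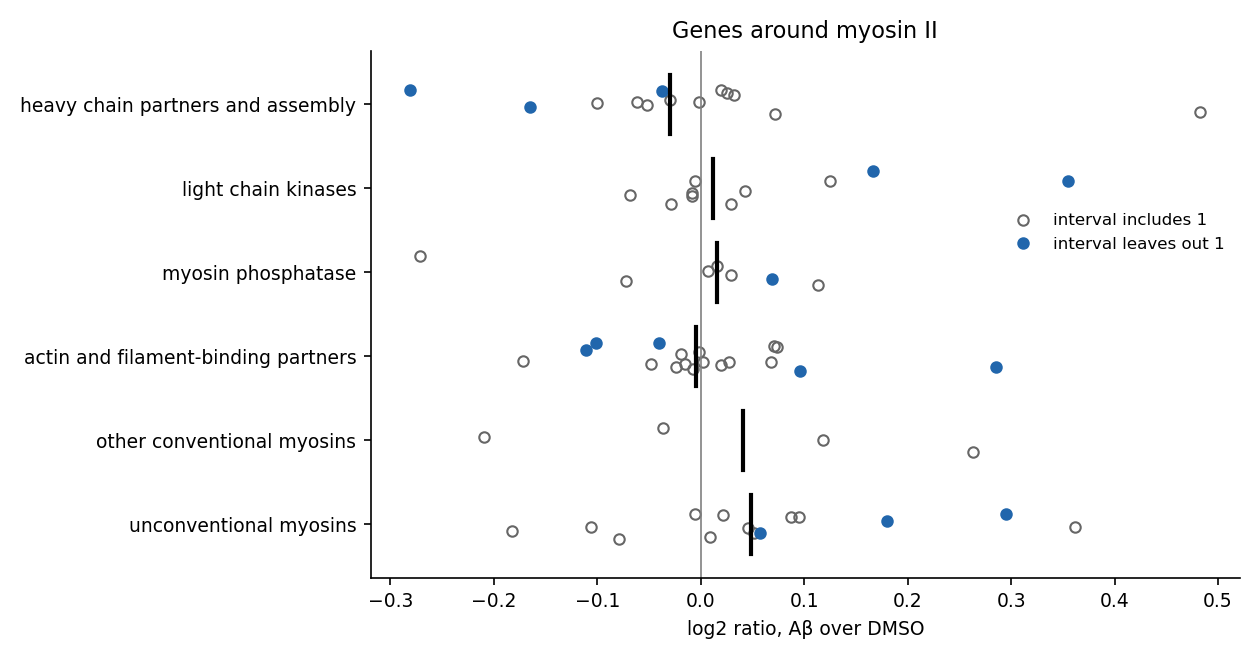
Log2 ratio, Aβ over DMSO, of each measured gene in 6 lists of genes around myosin II, with filled points where the counting interval leaves out 1 and black bars for list medians. Medians lie between -0.030 and 0.049, and single genes between -0.28 and 0.48.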

How the data were processed

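RNA was sequenced from 2 rat OPC cultures, with 1 library each for Aβ and DMSO. Per the labels' protocols, mRNA libraries were made with a BGI kit, and Bowtie2 and the build Rnor_6.0 appear in the submitters' processing notes. The quantifier, annotation and use of strand were not given in the sources used here. Deposited by the authors were estimated counts, TPM, FPKM and a further signal column that, per the file headers, is a normalized read count. That column was not used, since 100.0% of its nonzero values in each library matched (within 0.1%) the count rounded up over a constant.

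Counts were rounded for library factors and intervals. CPM used TMM factors (edgeR 4.0.16, R 4.3.3). The log2 ratio carried a pseudocount of 0.5 CPM, which understates differences of low genes, and a gene counted as measured if either library reached 1 CPM. Ratio intervals are exact Clopper-Pearson intervals given the sum of both counts, and odds ratios are conditional (scipy 1.17.1). All intervals cover counting error only. A self-test on counts simulated with counting error alone was passed, which says nothing of differences between cultures or of divided counts. Lengths were implied from counts and FPKM, and can fall short of the transcript. The length trend is a lowess curve (span 0.3). Alternatives included DESeq2 1.42.0 size factors. Identifiers of 9 of the 10 genes matched RefSeq.

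The genes and lists were chosen with earlier results of these data known. Every myosin II gene is named, with the 3 genes furthest from 0 and the 2 highest in TPM of each list, apart from a few genes and 1 list that are not reported here. With 2 libraries, likeness of pattern between genes was not assessed.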

Additional observations from a re-analysis of the deposited data

How the results depend on the processing

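Across total counts, DESeq2 size factors, TMM from whole-count genes, TPM, FPKM, other pseudocounts, other filters and subtraction of the length trend, Myh9l1 was called, with a log2 ratio from -1.61 (length trend subtracted) to -1.42 (pseudocount of 5 CPM). It drops out when only genes with whole counts are kept, which leaves 0 myosin II genes called, with 2 genes called higher and 10 lower. Over all genes, 36 were called higher and 58 lower, against 8 and 16 with a pseudocount of 5 CPM and 9 and 15 with a filter of 10 CPM. The summed myosin IIA heavy chain had a log2 ratio between -0.012 (length trend subtracted) and 0.050 (TPM), around 0.021. The direction of Myl6 also differed, from -0.013 (FPKM) to 0.034. Myh10 ranged from 0.059 to 0.13, Myl12a from -0.14 to -0.10 and Myl12b from -0.097 to -0.057. TPM moves the median of all measured genes by 0.037 on the log2 scale. Heavy chains ranged from 0.031 to 0.099 and regulatory light chains from -0.12 to -0.080, beside 0.064 and -0.11. Mylk, at -0.18, ranged from -0.20 to -0.036 (TPM), and Myl9, at -0.21, from -0.24 to -0.10. Both are limited by depth and do not pass the filter of 10 CPM. No replicate could be left out. No paired analysis was possible because each group has 1 library.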
